A study of Mus musculus with 9 samples.

Results

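Small nucleolar RNAs (snoRNAs) were measured among the transcripts recovered with Argonaute 2 (Ago2) from mouse amygdala. The genes were those whose deposited symbol begins with Snora, Snord or Scarna followed by a number or name. There were 15 such genes among the 9803 genes of the table, represented by 40 of its 11772 entries. Of these, 9 were C/D box genes (Snord), 6 were H/ACA box genes (Snora) and 0 carried a Scarna name. Where a symbol had several entries, the brightest on average was used.

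The mice were male C57BL/6J animals, 10 weeks old when a chronic social defeat protocol began, a stress of repeated attacks by a dominant mouse. Amygdala was taken 8 days after the protocol ended, Ago2 was immunoprecipitated, and the recovered RNA was hybridised to an Affymetrix whole-transcript array. The groups were control (no social defeat, arrays 1, 2 and 4), susceptible after social defeat (arrays 1, 2 and 3) and resilient after social defeat (arrays 1, 2 and 3), with 3 arrays each, and "defeated" below means the mean of the last 2 groups. All 3 groups went through the Ago2 precipitation, and neither input RNA nor a control precipitation was analysed here. The labels state neither how susceptible and resilient mice were told apart nor how many animals went into an array, so the p-values cover the spread among these arrays, part of which could be technical.

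Values are log2 signals after RMA (which corrects background, equalises the arrays and merges the probes of a transcript), so a difference of 1 is a doubling. Precision is limited by the number of arrays. The authors' table appears to hold only genes that differed to some degree among the 3 groups, by a rule that is not stated. A one-way analysis of variance of the deposited values, run only to look for such a filter, stayed at or below a nominal probability of 0.287 in the best entry of every symbol. Each of the 15 snoRNA genes would therefore already have passed such a filter, which makes p-values over the table too favourable. Other snoRNA genes were not analysed here. By their RefSeq type 2 more genes of the table are snoRNAs under symbols outside the rule, AF357341 and Rnu73a (now Snord73a), with mean log2 signals of 4.74 and 5.04. In precipitated RNA from whole tissue, fewer cells of a type, less RNA per cell, less binding to Ago2 and less carry-over without binding cannot be told apart.

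SnoRNAs are short nuclear RNAs that mostly lie in introns of other genes and are released when the host transcript is spliced. C/D box snoRNAs pair with ribosomal or spliceosomal RNA and direct 2'-O-methylation by fibrillarin, while H/ACA box snoRNAs direct the conversion of uridine to pseudouridine by dyskerin. In human cells some snoRNAs are cut further by Dicer into small RNAs that enter Argonaute complexes. Brain expresses in addition a large set of C/D box snoRNAs from imprinted clusters, of which Snord115 and Snord116 lie in the interval lost in Prader-Willi syndrome. An array probe inside a snoRNA matches the mature snoRNA, its unspliced host transcript and longer precursors alike.

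Because Ago2 carries small RNAs, the members were searched by position for microRNA precursors in the RefSeq table (GRCm38.p6), and 2 of them, both H/ACA box genes, overlapped an annotated microRNA hairpin. Snora36b shares 64 of its 113 bases with the Mir664 hairpin on chromosome 1 (chr1:185242975-185243043, plus strand), within the interval of the protein-coding gene Rab3gap2. Snora19, annotated over 56 bases, lies wholly within the Mir3084-2 hairpin on chromosome 19 (chr19:60774329-60774397, minus strand), within the interval of Eif3a. The hairpins are printed first, with capitals marking the ACA trinucleotide found 3 bases before the annotated 3' end of the snoRNA, the feature that names the H/ACA class. The mature microRNAs follow, with capitals marking the seed (bases 2 to 8), which pairs with target transcripts.
Mir664 hairpin in Snora36b: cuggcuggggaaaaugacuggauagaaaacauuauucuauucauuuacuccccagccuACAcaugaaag
Mir3084-2 hairpin around Snora19: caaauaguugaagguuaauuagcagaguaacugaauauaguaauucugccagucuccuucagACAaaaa
mmu-miR-664-5p: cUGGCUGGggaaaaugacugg
mmu-miR-664-3p: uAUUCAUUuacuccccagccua
mmu-miR-3084-5p: gUUGAAGGuuaauuagcagagu
mmu-miR-3084-3p: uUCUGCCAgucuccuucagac
No 2 of these 4 mature sequences share a seed. Both arms of Mir664 lie wholly inside Snora36b, as does the 3p arm of Mir3084-2 inside Snora19. Neither Mir664 nor Mir3084-2 had a row of its own among the 9803 genes, so the signals of Snora36b and Snora19 given below are those of the snoRNA probe sets.

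Among the 15 genes, 10 had lower and 5 had higher signal in defeated than in control mice, and limma called 0 of them. The largest differences were those of Snord82 (-0.62, SE 0.255), Snord115 (-0.59, SE 0.183) and Snord32a (-0.38, SE 0.142), of which the first corresponds to a 1.54-fold and the last to a 1.30-fold lower signal. The largest positive difference was that of Snora19 (0.18, SE 0.0959), which went to 0.11 without susceptible 3. Of all 9803 genes 41.4% were lower in defeated mice, and limma called 1.29% of all genes at an adjusted p under 0.05. The median difference over the 15 snoRNA genes was -0.12, against 0.04 over all genes.

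The same split, 10 lower and 5 higher, was found in susceptible and in resilient mice against the shared controls. The median of the snoRNA genes was -0.13 in both, against 0.05 and 0.03 over all genes, of which 42.0% and 41.6% were lower. limma called 0 of the 15 in either comparison, where it called 2.40% and 0.00% of all genes. Susceptible minus resilient gave 9 higher and 6 lower, a median of 0.04 against 0.01 over all genes, of which 45.9% were lower, and 0 calls against 0.00% of all genes. At an unadjusted p under 0.05 limma counted 0 members higher and 6 lower in defeated mice (23.3% and 13.6% of all genes), 3 and 2 in susceptible mice (25.9% and 14.8%), 1 and 5 in resilient mice (13.6% and 7.60%), and 2 and 1 in susceptible minus resilient (6.61% and 5.20%). No member had all 6 defeated arrays on one side of the controls, as 10.9% of all genes did on the higher side and 6.45% on the lower. The comparison was strict, and 10 of the 15 members had arrays with identical values. In Snord32a, Snord58b and Snord55 the highest defeated value equalled the lowest control value, so no defeated array lay above any control.

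The count of 0 depended on 1 array, and so did the calls over all genes. Without susceptible 1, limma called 2 of 15 members between defeated and control mice, Snord115 (-0.66, adjusted p = 0.0456) and Snord116 (-0.25, adjusted p = 0.0311). Its calls over all 9803 genes went from 126 to 1333, so the member calls came with a rise across the whole set of genes. In susceptible mice against controls the same omission gave calls for 6 of 15 members, with limma adjusted p-values from 0.0232 to 0.0459. Snord115, Snord116 and Snora43 were lower and Snord22, Snord118 and Snora19 higher. Of all 9803 genes, 1930 were called there, against 235 with all arrays.

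**Figure D1:**
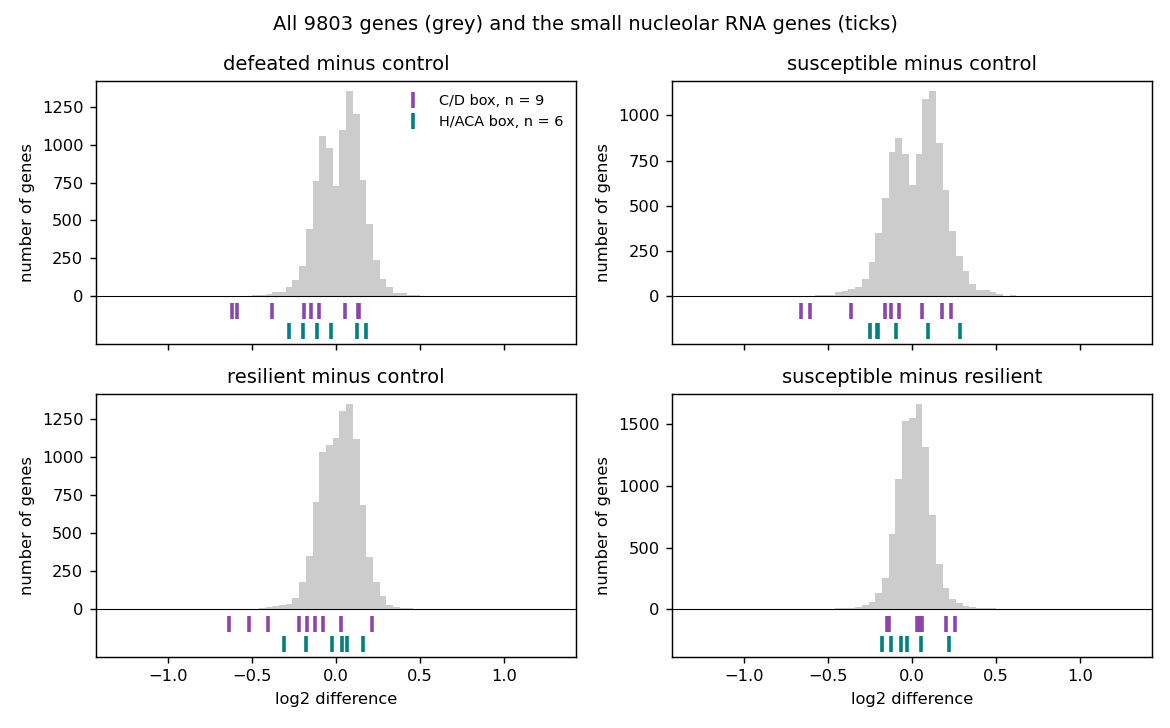
Number of genes (vertical axis) by log2 difference (horizontal axis) for all 9803 genes in grey, in 4 comparisons, with a tick under the histogram for each of the 9 C/D box and 6 H/ACA box genes. In the comparisons with controls, Snord82, Snord115 and Snord32a lie in the lower tail of all genes, and the other ticks lie between -0.31 and 0.29.

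Array by array, the median of the members lay below the control mean in every defeated array. The median over the 15 genes of the signal minus the control mean was -0.07, -0.11 and -0.10 in susceptible 1, 2 and 3 and -0.11, -0.13 and -0.12 in resilient 1, 2 and 3. Controls 1, 2 and 4 stood at -0.06, 0.06 and -0.04 by the same measure, so control 2 was the highest array. The susceptible 3 array held the lowest value of 6 of the 15 genes.

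The 15 genes covered a wide signal range, from a control mean of 5.29 for Snora62 to 12.98 for Snord116. Signals of different probe sets are not comparable as amounts. As a rough mark of background, the 95th percentile of 587 olfactory and vomeronasal receptor genes, which serve the nose, was 6.03 in controls. Above it lay 10 members, while Snora62, Snora43, Snord7, Snord118 and Snord22 lay at or below it. Of the 5 genes that were higher in defeated mice, 3 (Snord22, Snord118 and Snord7) were among these dim ones.

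Snord115 and Snord116, C/D box snoRNAs expressed from the paternal chromosome in neurons, had the highest signals of the set, and both had lower means after defeat in either group. Snord115 carries a stretch complementary to the transcript of the serotonin receptor gene Htr2c. Its log2 signal was 11.59, 12.25 and 11.37 in controls 1, 2 and 4, 11.37, 10.96 and 10.89 in susceptible 1, 2 and 3, and 11.41, 11.06 and 11.18 in resilient 1, 2 and 3. Control 2 stood apart as the highest, control 4 lay at the level of susceptible 1, and resilient 1 lay just above both, so the groups overlapped. The mean was 11.73 ± 0.46 in controls, 11.07 ± 0.26 in susceptible and 11.22 ± 0.18 in resilient arrays (SD, n = 3 each). Against controls the difference was -0.66, a 1.58-fold lower signal (SE 0.211, limma adjusted p = 0.0796), in susceptible and -0.52 (SE 0.211, adjusted p = 0.229) in resilient mice. Without control 2 the defeated minus control difference went from -0.59 to -0.33. The Htr2c transcript itself, added after its values were seen, differed between defeated and control mice by 0.03 (SE 0.0426, adjusted p = 0.587).

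Snord116 had 12.89, 13.04 and 12.998 in controls 1, 2 and 4, 13.05, 12.76 and 12.64 in susceptible 1, 2 and 3, and 12.83, 12.69 and 12.77 in resilient 1, 2 and 3. All 3 resilient arrays lay below all controls, which 11.4% of all genes also did, while susceptible 1 was above every control. Resilient minus control was -0.22 (SE 0.0925, adjusted p = 0.234) and susceptible minus control -0.16 (SE 0.0925, adjusted p = 0.174), which went to -0.08 without susceptible 3. These signals are close to the brightest value on each array, between 13.63 and 13.81.

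Both genes are multi-copy, and the table repeats them. Snord115 had 16 entries with only 3 distinct profiles over the arrays, 13 of the entries being identical, and Snord116 had 8 entries with 6 distinct profiles. All 16 Snord115 entries were lower in defeated mice, by -0.59 to -0.55, as were all 8 Snord116 entries, by -0.27 to -0.17. Copies share their sequence, so these entries are not independent measurements and the copies cannot be told apart. RefSeq (GRCm38.p6) places 17 Snord116 genes on chromosome 7 inside the long non-coding transcript Snhg14, and no gene under the plain name Snord115 was matched there.

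**Figure D2:**
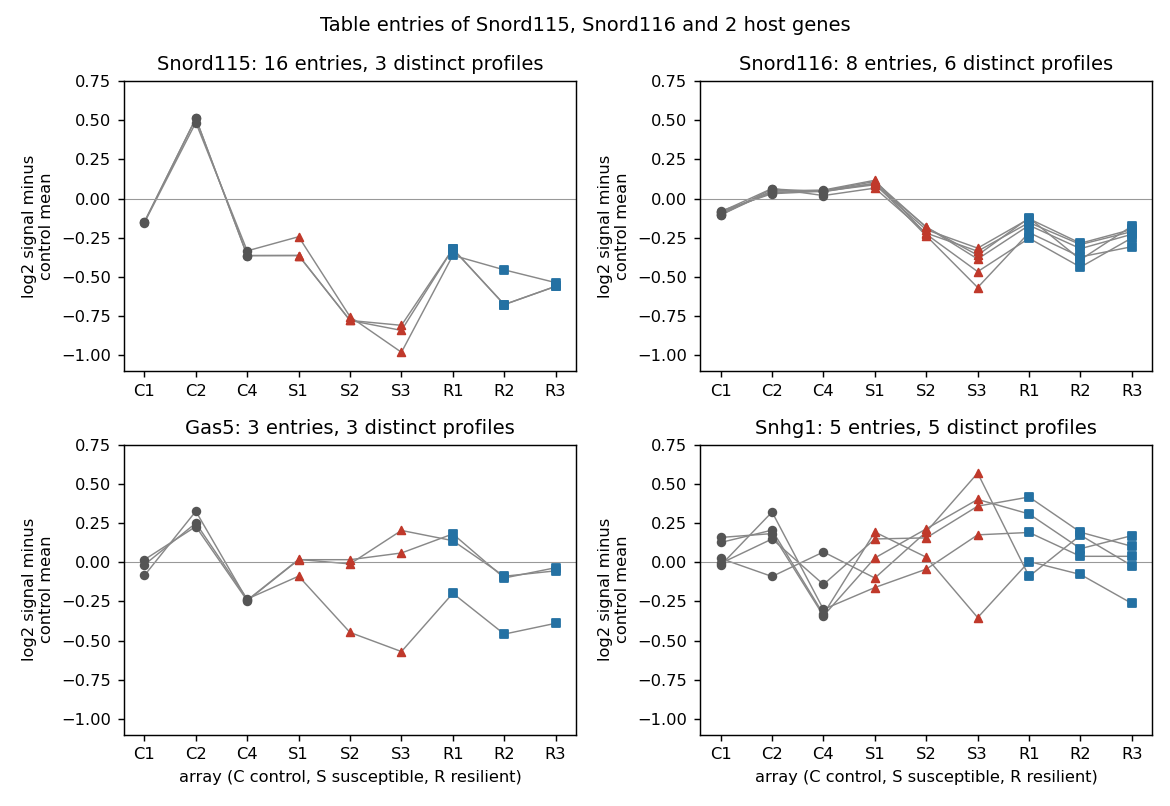
Log2 signal minus the control mean (vertical axis) in each of the 9 arrays (horizontal axis) for every distinct entry profile of Snord115, Snord116 and the host genes Gas5 and Snhg1, 1 line per profile. The Snord115 and Snord116 profiles run together within each gene, while 1 of the 3 Gas5 profiles lies below the other 2 in every defeated array and the 5 Snhg1 profiles diverge.

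The C/D box genes that guide methylation of ribosomal RNA, Snord82, Snord32a, Snord58b and Snord55, all had lower mean signal in both defeated groups. Arrays of Snord82 overlapped those of the controls in both groups. For Snord32a, Snord58b and, in susceptible mice, Snord55, the highest array only equalled the lowest control. Snord55 in resilient mice lay below all controls. Snord82, which lies in an intron of the nucleolin gene Ncl on chromosome 1, had log2 signals of 9.93, 9.27 and 8.76 in controls 1, 2 and 4. Susceptible 1, 2 and 3 gave 8.82, 9.08 and 8.25, and resilient 1, 2 and 3 gave 8.82, 8.87 and 8.36. Its controls spread over more than 1 log2 unit, and control 4 lay below 4 of the 6 defeated arrays. The differences of -0.61 (SE 0.295, adjusted p = 0.136) in susceptible and -0.64 (SE 0.295, adjusted p = 0.238) in resilient mice were about 2 standard errors.

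Snord32a is one of several snoRNAs in introns of the ribosomal protein gene Rpl13a on chromosome 7, which in hamster and mouse cells have been tied to the response to lipid stress. It had 9.95, 9.48 and 9.30 in controls 1, 2 and 4, against 9.30, 9.30 and 9.04 in susceptible 1, 2 and 3 and 9.29, 9.30 and 8.93 in resilient 1, 2 and 3. Control 1 was highest and resilient 3 and susceptible 3 were lowest. Control 4 had the same value as susceptible 1, susceptible 2 and resilient 2, the highest defeated arrays. Susceptible minus control was -0.36 (SE 0.164, adjusted p = 0.125) and resilient minus control -0.40 (SE 0.164, adjusted p = 0.229). Snord82 and Snord32a thus had their highest array, control 1, and their 2 lowest arrays, susceptible 3 and resilient 3, in common. Without control 1 the defeated minus control difference of Snord82 went from -0.62 to -0.32 and that of Snord32a from -0.38 to -0.20.

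Snord58b and Snord55 moved over a far narrower range. Snord58b, annotated on chromosome 18 within the ribosomal protein gene Rpl17, stood at 8.14 ± 0.14, 8.01 ± 0.05 and 7.96 ± 0.10 in control, susceptible and resilient arrays (SD, n = 3 each). Its differences were -0.13 (SE 0.0716) and -0.17 (SE 0.0716) against controls, with adjusted p-values of 0.168 and 0.232. Without control 2 these went to -0.05 and -0.10. A second Snord58b entry, at a slightly lower mean signal of 8.00, gave -0.17 in defeated mice against -0.15 for the entry used. Snord55 had 7.02, 7.12 and 7.13 in controls 1, 2 and 4, 7.02, 6.99 and 7.02 in susceptible 1, 2 and 3, and 6.98, 6.91 and 6.99 in resilient 1, 2 and 3. Every resilient array was below every control and below every susceptible array, separations that 11.4% and 8.35% of all genes also showed (6.65% had susceptible arrays below resilient ones). The sizes were -0.13 (SE 0.0424, adjusted p = 0.204) for resilient minus control and -0.08 (SE 0.0424, adjusted p = 0.162) for susceptible minus control.

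Snord22, Snord118 and Snord7, which act elsewhere than in methylation of mature ribosomal RNA, were the C/D box genes with a positive defeated minus control difference. Snord22 (U22) is needed in frog oocytes for release of the small ribosomal subunit RNA from its precursor, and lies in the non-coding host gene Snhg1 on chromosome 19. Its signals were 5.87, 5.84 and 5.84 in controls 1, 2 and 4, 5.87, 6.08 and 6.13 in susceptible 1, 2 and 3, and 5.87, 5.74 and 5.71 in resilient 1, 2 and 3. Susceptible 2 and 3 were above every other array, and resilient 2 and 3 were below every other array. The difference was 0.18 (SE 0.0688, adjusted p = 0.102) in susceptible and -0.08 (SE 0.0688, adjusted p = 0.450) in resilient mice.

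Snord118 (U8) is transcribed from its own promoter and is required for maturation of the large ribosomal subunit RNA. Its 2 entries were identical, at 5.75, 5.87 and 5.82 in controls 1, 2 and 4, 5.92, 6.21 and 6.00 in susceptible 1, 2 and 3, and 5.92, 5.92 and 5.70 in resilient 1, 2 and 3. All susceptible arrays lay above all controls, as 25.4% of all genes did, while the resilient arrays fell on both sides. Susceptible minus control was 0.23 (SE 0.0836, adjusted p = 0.0939) and resilient minus control 0.03 (SE 0.0836, adjusted p = 0.800). Snord7, which guides methylation of the U6 spliceosomal RNA, had 5.53, 5.72 and 5.70 in controls 1, 2 and 4 and 6.02, 5.89 and 5.68 in resilient 1, 2 and 3. The 3 susceptible arrays had the same value of 5.71, since the RMA summary gives ties between arrays. Snord7 differed by 0.21 (SE 0.0802, adjusted p = 0.217) in resilient and by 0.06 (SE 0.0802, adjusted p = 0.530) in susceptible mice against controls.

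**Figure D3:**
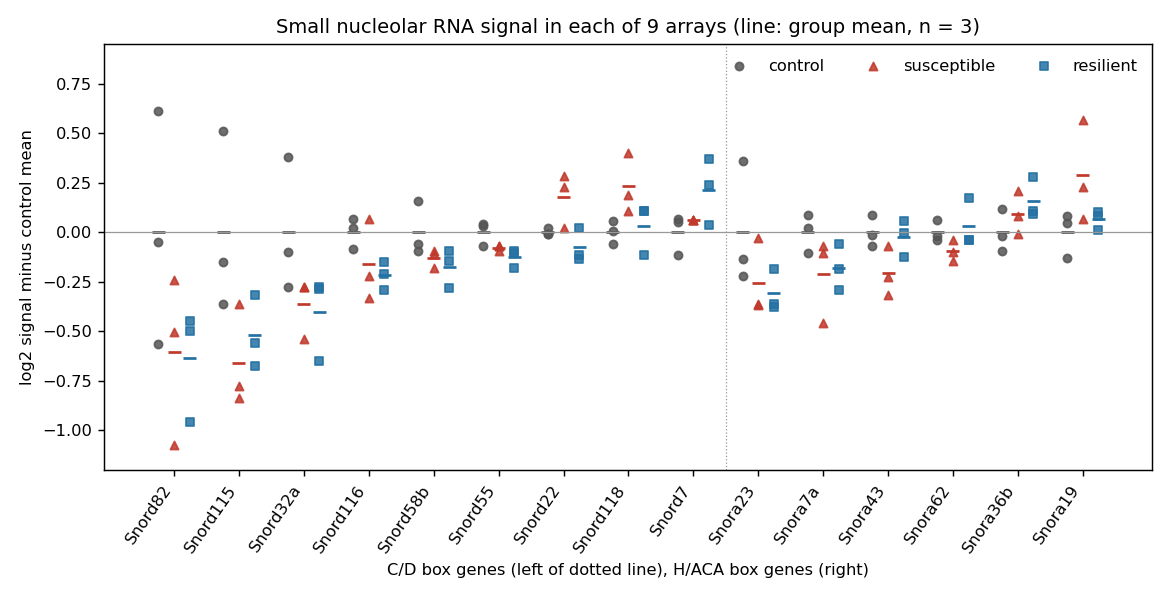
Log2 signal minus the control mean (vertical axis) of the 15 snoRNA genes (horizontal axis) in each of the 9 arrays, with group means as short lines. Snord82, Snord115 and Snord32a have the lowest defeated arrays and also the widest controls. In Snord115 and Snord32a 1 control array lies well above the others, and in Snord82 the controls are spread evenly.

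Among the H/ACA box genes, Snora23 and Snora7a, guides for pseudouridylation of the large subunit RNA, had lower mean signal in both defeated groups. Snora23, within the nuclear import gene Ipo7 on chromosome 7, had 10.15, 10.73 and 10.23 in controls 1, 2 and 4, 10.00, 10.01 and 10.34 in susceptible 1, 2 and 3, and 10.18, 9.99 and 10.01 in resilient 1, 2 and 3. Control 2 was the highest array, and susceptible 3 lay above the remaining controls. The differences were -0.25 (SE 0.148, adjusted p = 0.181) in susceptible and -0.31 (SE 0.148, adjusted p = 0.243) in resilient mice, and without control 2 the defeated minus control difference went from -0.28 to -0.10. Snora7a, within the ribosomal protein gene Rpl32 on chromosome 6, had 9.24, 9.05 and 9.18 in controls 1, 2 and 4, 9.08, 9.05 and 8.70 in susceptible 1, 2 and 3, and 8.97, 9.09 and 8.86 in resilient 1, 2 and 3. Susceptible 3 and resilient 3 were its lowest arrays. Its differences were -0.21 (SE 0.103, adjusted p = 0.136) in susceptible and -0.18 (SE 0.103, adjusted p = 0.282) in resilient mice, and without susceptible 3 the former went to -0.09.

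Snora43 and Snora62 were dim. Snora43, within the non-coding host gene Snhg7 on chromosome 2, had 5.63, 5.72 and 5.57 in controls 1, 2 and 4, 5.57, 5.41 and 5.32 in susceptible 1, 2 and 3, and 5.64, 5.51 and 5.69 in resilient 1, 2 and 3. Susceptible 2 and 3 were its lowest arrays, and susceptible 1 equalled control 4. Susceptible minus control was -0.21 (SE 0.0724, adjusted p = 0.0904) and resilient minus control -0.03 (SE 0.0724, adjusted p = 0.813). Snora62, a large subunit guide within the ribosomal protein gene Rpsa on chromosome 9, had 5.26, 5.34 and 5.25 in controls 1, 2 and 4, 5.19, 5.25 and 5.14 in susceptible 1, 2 and 3, and 5.46, 5.25 and 5.25 in resilient 1, 2 and 3. Control 4, susceptible 2 and resilient 2 and 3 shared a value. It was the lowest control and resilient value and the highest susceptible value, so susceptible arrays met the others only by a tie. Its differences were -0.09 (limma adjusted p = 0.223) in susceptible and 0.03 (adjusted p = 0.721) in resilient mice.

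Snora36b and Snora19, the genes that share sequence with the Mir664 and Mir3084-2 hairpins printed above, were the only H/ACA box genes with a positive defeated minus control difference. Snora36b had 7.25, 7.32 and 7.46 in controls 1, 2 and 4, 7.33, 7.42 and 7.55 in susceptible 1, 2 and 3, and 7.43, 7.62 and 7.45 in resilient 1, 2 and 3. The groups overlapped, with differences of 0.09 (SE 0.0761, adjusted p = 0.318) in susceptible and 0.16 (SE 0.0761, adjusted p = 0.243) in resilient mice. Snora19 had 6.55, 6.58 and 6.37 in controls 1, 2 and 4, 6.57, 6.73 and 7.06 in susceptible 1, 2 and 3, and 6.58, 6.51 and 6.60 in resilient 1, 2 and 3, with its 2 entries identical. Susceptible 3 stood highest, and the resilient arrays lay within 0.1 of the upper controls. Susceptible minus control was 0.29 (SE 0.111, adjusted p = 0.102) and resilient minus control 0.07 (SE 0.111, adjusted p = 0.686), and without susceptible 3 the former went to 0.15. Neither gene passed the test, and the arrays do not separate a microRNA precursor from the snoRNA that overlaps it.

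Set side by side, the classes gave medians of the same sign in defeated mice, -0.15 over the 9 C/D box genes and -0.07 over the 6 H/ACA box genes, with 6 of 9 and 4 of 6 genes lower. In susceptible mice the medians were -0.13 and -0.15. In resilient mice they were -0.17 for C/D box genes, with 7 of 9 lower, and 0.00 for H/ACA box genes, with 3 of 6 lower. By array, the C/D box median minus control mean was -0.15, -0.18 and -0.14 in resilient 1, 2 and 3, and the H/ACA box median was 0.04, -0.05 and 0.01. In susceptible 1, 2 and 3 the C/D box medians were -0.07, -0.11 and -0.10 and the H/ACA box medians -0.07, -0.07 and -0.09. The difference between the classes was not tested, since the genes within a class share arrays and hosts.

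Between susceptible and resilient mice, limma called no member, and the intervals were widest for Snord82 and Snord115. Snord22 had the largest difference, 0.25 (SE 0.0688, 95% interval 0.10 to 0.41, adjusted p = 0.411). The susceptible 1 and resilient 1 arrays of Snord22 both stood at 5.87. Snora19 differed by 0.22 (SE 0.111), with a 95% interval of -0.03 to 0.47, and Snord118 by 0.20 (SE 0.0836), from 0.01 to 0.39. On the negative side were Snora43 (-0.18, SE 0.0724), Snord7 (-0.15, SE 0.0802) and Snord115 (-0.14, SE 0.211). The interval of Snord82 ran from -0.63 to 0.69 around 0.03, that of Snord115 from -0.62 to 0.33 and that of Snord32a from -0.33 to 0.41. Differences within these intervals, in either direction, were thus not excluded for these genes. The narrowest interval was that of Snord55, from -0.05 to 0.14 around 0.05, and its adjusted p was 0.542.

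**Figure D4:**
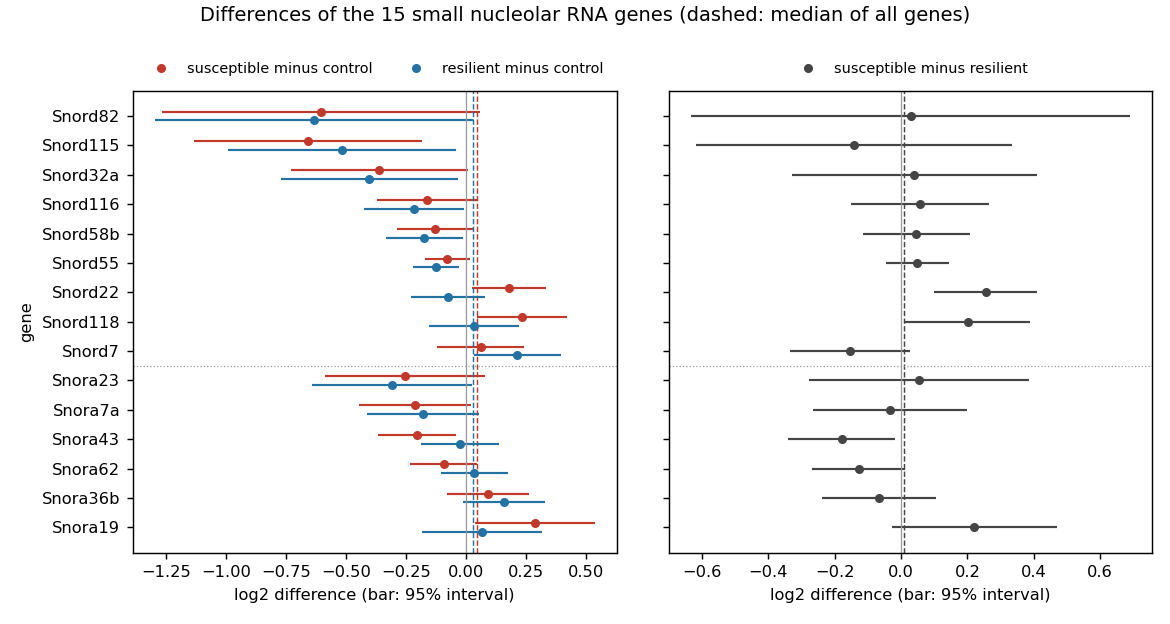
Log2 differences (horizontal axis) of the 15 snoRNA genes (vertical axis) with 95% intervals from limma, for susceptible and resilient mice against controls on the left and susceptible minus resilient on the right, with dashed lines at the median of all 9803 genes. Susceptible and resilient estimates, which share the controls, lie close together for Snord82, Snord32a and Snord58b, while those of Snord22 and Snora43 lie further apart.

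Host genes were examined because an intronic snoRNA is made from its host transcript. RefSeq placed 13 of the members within another gene or non-coding transcript, by position only, since the gene table gives no strand, and 4 of these hosts were in the table. Ncl had a difference of -0.13 (SE 0.0494, adjusted p = 0.113) between defeated and control mice, against -0.62 for its snoRNA Snord82, but its log2 signal of 5.14 in controls was below the receptor mark. Rab3gap2 had 0.16 (SE 0.0520, adjusted p = 0.0916) against 0.13 for Snora36b, and Eif3a 0.07 (SE 0.0409, adjusted p = 0.187) against 0.18 for Snora19. Snhg1, which holds a series of C/D box snoRNAs in its introns, had 5 entries with differences from -0.08 to 0.23, against 0.05 for Snord22.

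Of 24 long non-coding snoRNA hosts listed, 4 were in the table, and limma called 1 of them in susceptible mice against controls (2.40% of all genes) and 0 between defeated and control mice (1.29%) and in the other comparisons (0.00% in each). Snhg17, deposited under its older name 9430008C03Rik, was 6.04 ± 0.05 in control and 5.78 ± 0.07 in susceptible arrays (SD, n = 3 each). It fell in susceptible mice by 0.26 on the log2 scale (limma SE 0.0504, adjusted p = 0.0439). Its control mean of 6.04 lay barely above the receptor mark of 6.03, and its susceptible and resilient means lay below that mark. The call was lost with an allowance for the selection of the table, and limma called 0 of all genes in this comparison without control 1, control 2, susceptible 2 or susceptible 3. It stood at 5.87 ± 0.06 (SD, n = 3) in resilient mice, with a difference of -0.16 (SE 0.0504, adjusted p = 0.193). Gas5, a host of many C/D box snoRNAs, had 3 entries that disagreed. The entries at mean signals of 10.77 and 9.93 differed by 0.02 and 0.03 between defeated and control mice, and the entry at 9.10 differed by -0.36. That entry had 9.32, 9.59 and 9.10 in controls 1, 2 and 4, 9.25, 8.89 and 8.77 in susceptible 1, 2 and 3, and 9.14, 8.88 and 8.95 in resilient 1, 2 and 3. Like Snord115, it was highest in control 2 and lowest in susceptible 3. The deposited tables do not say which part of Gas5 each entry covers. Snhg20 differed by -0.01 (SE 0.0353).

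Many snoRNA hosts belong to the class of genes whose transcripts start in a run of pyrimidines, which couples their translation to growth signals. The start of 10 hosts was found in the RefSeq promoter table, and 5 are printed because they hold Snord32a, Snord82, Snora23, Snord22 and Snord116. Each line runs from 30 bases before to 20 bases after the annotated start, and capitals mark the longest run of C and T on the transcribed strand that touches the first 12 transcribed bases, where it is at least 5 long.
Rpl13a, chr7:45128726-45128775, minus strand: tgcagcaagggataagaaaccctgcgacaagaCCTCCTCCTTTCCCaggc
Ncl, chr1:86359436-86359485, minus strand: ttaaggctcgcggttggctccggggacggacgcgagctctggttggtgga
Ipo7, chr7:110018285-110018334, plus strand: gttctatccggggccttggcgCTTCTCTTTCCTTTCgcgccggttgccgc
Snhg1, chr19:8723457-8723506, plus strand: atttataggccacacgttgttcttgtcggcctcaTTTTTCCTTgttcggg
Snhg14, chr7:60450158-60450207, minus strand: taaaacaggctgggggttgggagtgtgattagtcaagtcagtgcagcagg
The run was 14 bases in Rpl13a and 15 in Ipo7, lengths reached by 1.45% and 1.14% of all 32851 windows of the table. It was 9 bases in Snhg1 (6.12% of windows), 4 in Ncl and 2 in Snhg14. The hosts of Snord32a and Snora23 thus had long runs, and those of Snord82 and Snord116, whose signals were also lower in defeated mice, had none of 5 or more. A run of these letters is a description of the window and no evidence of a functional motif.

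The proteins that assemble on snoRNAs showed small differences in the few genes the table held. Of the 4 core proteins of C/D box particles only Snu13 was present, at -0.06 (SE 0.0450) between defeated and control mice, and of the 4 core proteins of H/ACA box particles only Dkc1, the dyskerin gene, at 0.01 (SE 0.0313). Among 23 assembly, Cajal body and processing factors 8 were present, 5 higher and 3 lower in defeated mice with a median of 0.06. limma called 0 of them in all 4 comparisons (of all genes 1.29% in defeated, 2.40% in susceptible mice and 0.00% otherwise). Shq1, a chaperone of dyskerin, had 0.16 (SE 0.0559, adjusted p = 0.105), and Npm1, which encodes the nucleolar protein nucleophosmin, had -0.16 (SE 0.0624, adjusted p = 0.121). Parn, the exonuclease that trims the 3' ends of H/ACA box snoRNAs, had 0.21 (SE 0.0672, adjusted p = 0.201) in resilient and -0.03 (SE 0.0672, adjusted p = 0.676) in susceptible mice against controls.

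MicroRNA genes, another small RNA class on the array, had a median of 0.07 in defeated mice with 59 of 148 lower. That share was near the 41.4% of all genes, while 10 of 15 snoRNA genes were lower. Cytosolic ribosomal protein genes, a class that hosts many snoRNAs, had a median of -0.07 with 9 of 10 lower. limma called 0 genes of either class between defeated and control mice (1.29% of all genes). In susceptible mice against controls, where it called 2.40% of all genes, it called 6 of 148 microRNA genes, 2 higher and 4 lower. It called 0 of the 10 ribosomal protein genes there.

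The tissue was checked by markers, of which 3 of 9 pan-neuronal genes were in the table. Their averages were 12.61 to 12.64 over the control arrays, 12.58 to 12.59 over the susceptible ones and 12.60 over the resilient ones. All 6 defeated arrays thus lay narrowly below all controls, as 6.45% of single genes did. Among markers of other cells limma called no gene in any comparison (2.40% of all genes at most). Their averages did not overlap between susceptible and control arrays for 3 lists, while resilient arrays overlapped controls in all 3. Of single genes, 25.4% had all susceptible arrays above all controls and 14.8% had them below. The average of 13 of 14 choroid plexus and ependymal markers was 9.51 to 10.01 in controls, 10.02 to 10.50 in susceptible and 9.52 to 10.12 in resilient mice. The average of 6 of 13 microglia and macrophage markers was 9.09 to 9.22, 8.86 to 9.01 and 8.86 to 9.15 in the same order, and that of 3 of 12 oligodendrocyte and myelin markers was 9.27 to 9.41, 8.87 to 9.02 and 8.87 to 9.40. Striatal-type neuron markers (4 of 8) averaged 9.30 to 9.62 in control, 8.68 to 9.32 in susceptible and 9.26 to 10.25 in resilient arrays. These groups overlapped, but all 4 genes were lower in susceptible mice against controls (median -0.43). All 4 were higher in resilient mice (median 0.10), where resilient 1 gave 10.25 and resilient 2 and 3 gave 9.29 and 9.26. Astrocyte markers (2 of 9) and endothelial markers (3 of 6) overlapped between all groups, at 11.86 to 12.02 and 8.78 to 9.09 over the 9 arrays. Of the central amygdala markers 1 of 6 was present, at 10.13 to 10.63 in control, 10.60 to 10.73 in susceptible and 10.30 to 10.62 in resilient arrays. The average of 2 of 6 basolateral amygdala and cortical excitatory markers was 10.22 to 10.25, 10.18 to 10.24 and 10.13 to 10.32 in the same order. The part of these cells in the snoRNA differences was not tested.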

How the data were processed

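RNA precipitated with Ago2 was measured on 9 arrays, 3 per group, grouped by the sample titles. The authors deposited log2 values; the submitters' processing notes name RMA and Partek, without versions or a genome build. Symbols came from a second deposited table by probe set identifier, whose 9 value columns matched no sample label and were not used. Array medians lay between 7.11 and 7.19.

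A single limma fit of all 9803 genes used 1 mean for each group (lmFit, contrasts.fit, eBayes, two-sided, no filter, prior degrees of freedom 3.40), with Benjamini-Hochberg adjustment over all genes and calls at an adjusted p under 0.05. It was tested on simulated data. Intervals are at 95%, and SE is limma's. The fits ran in limma 3.58.1 under R 4.3.3, and other steps in numpy 2.4.6 and pandas 2.3.3 with Python 3.11.15. Gene positions and sequences are from RefSeq tables (GRCm38.p6), in which 14 of the 15 members were matched.

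Values in every array are given for members called in any comparison, the 3 largest differences of each sign per comparison, imprinted clusters and the 3 brightest and dimmest members. Members and gene lists were chosen with earlier results of these data known. Alternatives were array scaling, the entry kept, a filter at a mean log2 signal of 6, eBayes with trend, the replicate number as a block, an allowance for the selection of the table, and leaving out each array.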

Additional observations from a re-analysis of the deposited data

How the results depend on the processing

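The count of called members stayed at 0 in all 4 comparisons under each of the 8 settings that kept all arrays. Over arrays left out it ran from 0 to 2 in defeated mice, 0 to 6 in susceptible mice, and 0 to 0 in the other comparisons. The highest counts came without susceptible 1, where limma called 1333 and 1930 of all 9803 genes. The medians over members moved more. With each entry as its own row, where Snord115 counts 16 times, defeated minus control was -0.26 for all members and -0.55 for C/D box genes. Susceptible minus control was then -0.22, with -0.61 for C/D and -0.095 for H/ACA box genes. Resilient minus control was -0.30, with -0.45 for C/D, and susceptible minus resilient -0.050, with -0.13 for C/D. With a mean log2 signal of at least 6 the medians were -0.19 and -0.29 (C/D) in defeated, -0.19, -0.26 (C/D) and -0.060 (H/ACA) in susceptible, -0.20, -0.31 (C/D) and -0.057 (H/ACA) in resilient mice, and 0.011 (H/ACA) in susceptible minus resilient. Arrays shifted to one median gave -0.16 and -0.19 (C/D) in defeated and -0.18, -0.18 (C/D) and -0.20 (H/ACA) in susceptible mice.

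The replicate number as a block moved the H/ACA box median to -0.10 in susceptible and -0.065 in resilient mice, turned Snora19 in resilient mice to -0.077, gave it 0.033 in defeated and 0.14 in susceptible mice, moved Snora7a in susceptible mice to -0.11, made Snord7 (0.21) the largest positive difference in defeated mice, and left the count of member calls at 0. Same-numbered arrays correlated between -0.08 and 0.25 in their deviations from group means, not all over 0.1. Arrays of different number correlated between -0.28 and 0.35. The labels do not say whether equal numbers mark a shared batch, and these correlations cannot settle it. Other reversals with all arrays kept were Snora62 (-0.0021) and Snord118 (-0.0034) in resilient mice with arrays shifted to one median, and Snord82 (-0.0028) in susceptible minus resilient with quantile normalisation. Calls over all genes were 126 between defeated and control and 235 between susceptible and control mice, and went to 0 and 0 with the block, 2 and 340 with shifted medians, 3 and 2 with quantile normalisation, 255 and 407 with trend, 310 and 382 with the filter, 75 and 99 over single entries, and 0 and 1 with the selection allowance. Leaving out control 4, with no block, gave 9 and 89.

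Leaving out 1 array gave medians of -0.15 to -0.074 in defeated, -0.16 to -0.065 in susceptible and -0.14 to -0.097 in resilient mice, and -0.083 to 0.060 in susceptible minus resilient. For C/D box genes these were -0.18 to -0.087, -0.16 to -0.062, -0.21 to -0.11 and -0.0038 to 0.13, and for H/ACA box genes -0.10 to -0.037, -0.16 to -0.070, -0.037 to 0.047 and -0.091 to 0.0066. No member changed sign in defeated or susceptible mice against controls when an array was left out. In resilient mice Snora43 ran from -0.065 to 0.026, Snora62 from -0.038 to 0.068 and Snord118 from -0.0069 to 0.11. In susceptible minus resilient Snora23 ran from -0.057 to 0.12, Snora7a from -0.10 to 0.090, Snord116 from -0.059 to 0.14, Snord32a from -0.083 to 0.13, Snord58b from -0.0077 to 0.085 and Snord82 from -0.15 to 0.26. The cause was not tested. Within this number of arrays, differences as small as those of most members cannot be resolved.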
